A study of Mus musculus with 34 samples.

Results

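Talins, kindlins and the adaptor proteins bound to them were followed as 10 genes, given by name: the talins *Tln1* and *Tln2*, the kindlins *Fermt2* and *Fermt3*, *Vcl* (vinculin), *Ilk*, *Parva*, *Lims1*, *Pxn* (paxillin) and *Zyx* (zyxin). All 10 were found among the 25853 genes of the deposited tables. They were measured in single MCs from ear skin of 3 WT and 3 *Tln1*ΔMC mice, in 30 libraries, and in single GFP+ ear skin cells of the *Myh11-GFP* line, in 4 libraries. The WT mice were *Mcpt5-cre*+/- *Tln1*+/+ *R26*LSL:YFP littermates, and the *Tln1*ΔMC mice carried *Mcpt5-cre*, *Tln1* fl/fl and *R26*LSL:YFP, so that both genotypes carried the Cre, which the mast cell protease promoter *Mcpt5* drives, and the reporter; all were 7-week-old males. The labels name C57BL/6J as the strain, and the study's methods place *Mcpt5-cre* *Tln1* fl/fl mice and their reporter crosses on C57BL/6J-Albino, with the *Tyr* c-2J allele on both chromosomes. The sort took CD45+ Lin- YFP+ cells as MCs, and CD45- GFP+ cells from mice with 1 *Myh11*GFP allele, on C57BL/6J; their number is not given in the sources used here, and their age and sex only as those of all strains of the study, mice of either sex between 7 and 12 weeks. Each mouse had 4 libraries, apart from *Tln1*ΔMC mouse 3 with 10. The mouse was the replicate, the number after the genotype in the labels being taken as the mouse, and the 4 *Myh11-GFP* libraries were summed as 1 sample without a test.

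Talins and kindlins bind the cytoplasmic tails of integrin β subunits, and their joint binding switches integrins to the state that holds extracellular matrix ligands. Talin and vinculin then tie the integrin to actin filaments, while ILK, PINCH (encoded by *Lims1*) and parvin form a complex that kindlin recruits, and paxillin and zyxin gather kinases and actin regulators at the adhesion. Kindlin-3, from *Fermt3*, is the kindlin of blood cells, whereas kindlin-2, from *Fermt2*, is that of most adherent cells. Talin-1 is the talin of blood cells, and talin-2 is best known from muscle and brain. The comparison of the genotypes asked whether any of the other genes was higher in MCs of *Tln1*ΔMC mice.

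Levels are transcripts per 10000 transcripts of genes not named Gm plus a number, summed over the cells of a mouse or library with more than 1000 transcripts. Every molecule gives 1 tag at the 3′ end, so that levels are not scaled by gene length. The MCs of a mouse comprised 272 to 934 cells and 699401 to 5238325 transcripts outside Gm genes, and the 4 *Myh11-GFP* libraries 73 to 93 cells and 221589 to 478713 transcripts. Gm genes took 14.2% (*Tln1*ΔMC mouse 3) to 58% (WT mouse 3) of the transcripts of MCs. The 9 MC markers together stood at 633 to 866 per 10000 in the 6 mice and at 0.194 in *Myh11-GFP* cells, with 5 of the 9 at 0 there, among them *Cma1* and *Mcpt4*. Contractile smooth muscle markers stood at 124.3 and pericyte markers at 122.1 in *Myh11-GFP* cells, against at most 0.257 and 0.458 in MCs, but the 6 fibroblast markers were also present there, at 142.3 to 339.9 per library. In the sorted MCs the 6 fibroblast markers, with none at 0, stood at 20.1, 82.7 and 54.1 in the WT mice but at 10.5, 1.97 and 0.976 in the *Tln1*ΔMC mice, so that they did not overlap between the genotypes. The 9 macrophage markers measured ranged from 2.08 to 40.0 in WT and from 1.15 to 7.13 in *Tln1*ΔMC mice, and the 6 keratinocyte markers from 1.69 to 28.7 and from 0.0641 to 24.8. T cell markers stood at 0.127 or lower and endothelial markers at 0.103 or lower in every mouse, and of the 4 platelet markers *Itga2b*, which MCs also express, gave nearly all transcripts.

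In WT MCs the most abundant of the 10 was *Tln1*, at 5.71 ± 1.12 per 10000 (SD, n = 3 mice). *Zyx* followed at 4.39 ± 0.904, and the ranges of these genes over the WT mice overlapped. *Fermt3* stood at 1.82 ± 0.240, *Pxn* at 1.14 ± 0.25, *Lims1* at 0.681 ± 0.215 and *Fermt2* at 0.391 ± 0.162. Of these neighbours in order, *Zyx* and *Fermt3*, and *Fermt3* and *Pxn*, did not overlap over the mice, whereas *Pxn* with *Lims1* and *Lims1* with *Fermt2* did. *Parva* (0.101 ± 0.0118), *Vcl* (0.0991 ± 0.0275) and *Ilk* (0.0761 ± 0.0311) lay close together with ranges that overlapped. *Tln2* was the lowest, at 0.0221 ± 0.00921, from 6 transcripts in 904 WT cells. MCs of the ear skin thus held mainly the talin and the kindlin of blood cells, with *Ilk*, *Parva* and *Vcl* below 0.2 per 10000 in each WT mouse.

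**Figure D1:**
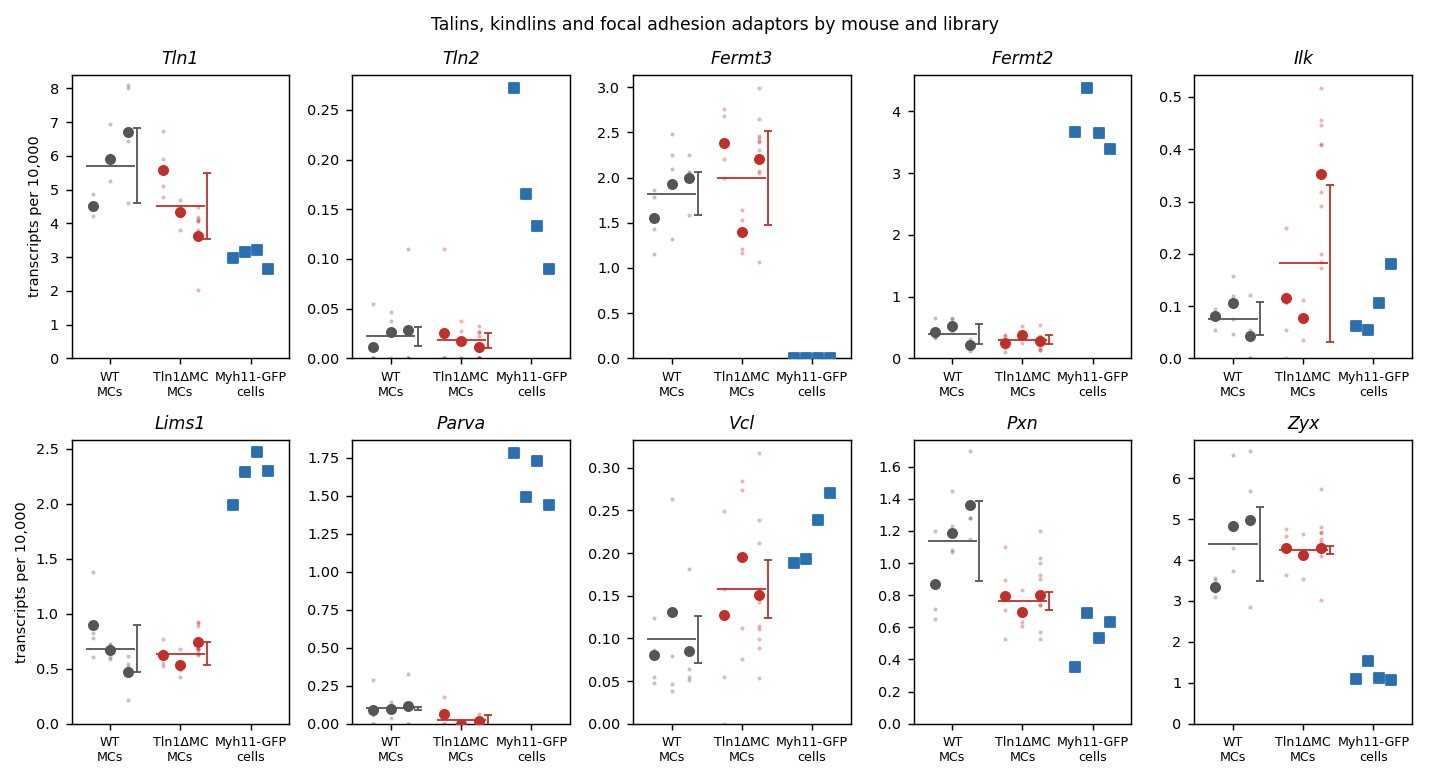
Level of each of the 10 genes in transcripts per 10,000 (y axis) in WT MCs, *Tln1*ΔMC MCs and *Myh11-GFP* cells; large points are mice (MCs) and squares are libraries (*Myh11-GFP*), small points are the libraries of a mouse, and lines with bars give the mean and SD of 3 mice. *Fermt3* was listed at 0 in all 4 *Myh11-GFP* libraries, where *Fermt2* stood between 3.39 and 4.38.

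*Tln1* transcripts were still counted in *Tln1*ΔMC MCs. WT mice 1, 2 and 3 held 4.51, 5.92 and 6.71 per 10000, while *Tln1*ΔMC mice 1, 2 and 3 held 5.57, 4.33 and 3.63. The ranges of the genotypes overlapped, since *Tln1*ΔMC mouse 1 lay above WT mouse 1. The log2 fold change of *Tln1*ΔMC over WT was -0.31 ± 0.25 (SE), with a 95% interval from -0.86 to 0.24 (limma, adjusted p = 0.875). *Tln1* lies on chromosome 4 of GRCm38, from 43531519 to 43562691 on the minus strand. Tags come from the 3′ end of the gene and the deleted exons are not given in the sources used here, so that these counts do not check the deletion. The study reports lower talin protein in cultured MCs of *Tln1*ΔMC mice, measured by flow cytometry and western blot. It also reports impaired adhesion of their dermal MCs. Neither is a measure of the sorted cells. Of the 10 libraries of *Tln1*ΔMC mouse 3, library 8 had the lowest *Tln1* level, 2.04, against 3.63 to 4.48 in the other 9, and it also had the highest level of keratinocyte markers of all 30 libraries, 133.7 per 10000; without it the mouse stood at 3.97. Over the 30 MC libraries the genes whose log2 levels were most like *Tln1* were *Mcpt4*, a chymase of connective tissue MCs (Pearson r = 0.91), *Anxa6*, a membrane-binding annexin (0.89), *Lcp1*, an actin-bundling plastin (0.87), *Tpm3*, a tropomyosin (0.87), and *Lgals9*, a galectin (0.87). These values describe 3263 genes with a mean level of at least 0.5, over libraries that share mice and differ in the cells and depth they hold.

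None of the other members passed the test between the genotypes. Of the 10 members, 7 had at least 10 transcripts in at least 3 mice and were tested, whereas *Tln2*, *Ilk* and *Parva* were not. In limma, 0 of the 7 were called, and 0 had an unadjusted p under 0.05. Over all 8601 genes tested 0 were called too (0%), with 503 at an unadjusted p under 0.05, and weighting by voom called 2 genes. The median log2 fold change of the 7 members was -0.03, beside 0.00 for all genes tested. In the design of 3 against 3 mice an exact permutation test cannot go below p = 0.1.

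*Tln2*, the other talin, was found in 6 transcripts of WT and 10 transcripts of *Tln1*ΔMC MCs. Its level was 0.0116, 0.0261 and 0.0286 in WT mice and 0.0256, 0.0170 and 0.0115 in *Tln1*ΔMC mice, with overlapping ranges (two-sided exact permutation p = 0.5 over 3 and 3 mice). The upper Poisson bound, which covers counting error only, was at most 0.0926 per 10000 in any *Tln1*ΔMC mouse, below the lowest *Tln1* level of 3.63 in these mice. Between the kindlins, *Fermt3* stood at 1.55, 1.93 and 1.99 in WT and at 2.38, 1.4 and 2.20 in *Tln1*ΔMC mice. Its *Tln1*ΔMC mice lay on both sides of the WT range, and the log2 fold change was 0.14 ± 0.23 (interval -0.39 to 0.66, adjusted p = 0.953 by limma). *Fermt2* stood at 0.428, 0.532 and 0.215 in WT and at 0.244, 0.382 and 0.288 in *Tln1*ΔMC mice. All *Tln1*ΔMC values of *Fermt2* fell inside the WT range, with a log2 fold change of -0.25 ± 0.34 (interval -1.02 to 0.52, adjusted p = 0.934 by limma).

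Vinculin, which binds talin under tension, was low but above most WT values in *Tln1*ΔMC mice. *Vcl* was 0.0809, 0.131 and 0.0858 in WT and 0.128, 0.195 and 0.151 in *Tln1*ΔMC mice, from 6 to 15 and 10 to 79 transcripts per mouse. WT mouse 2 lay just above *Tln1*ΔMC mouse 1, so that the ranges overlapped. The log2 fold change was 0.66 ± 0.38, with an interval from -0.19 to 1.52, and did not pass the test (limma, adjusted p = 0.842; two-sided exact permutation p = 0.2 over 3 and 3 mice). In WT mouse 2, library 3, which had the most macrophage markers of the MC libraries (0.901% of transcripts), held *Vcl* at 0.264, against 0.0381 to 0.0791 in the other libraries of this mouse. Without this library WT mouse 2 stood at 0.0548, and all *Tln1*ΔMC mice then lay above all WT mice. The share of all genes that separated in this way was not counted. With macrophage-marked cells left out instead (limit of 1% of transcripts), *Vcl* was 0.137 in WT mouse 2 and 0.128 in *Tln1*ΔMC mouse 1. The ranges then still overlapped. With only cells of more than 1000 transcripts outside Gm genes, *Vcl* was 0.0616, 0.133 and 0.0921 in WT mice. It was 0.134, 0.191 and 0.151 in *Tln1*ΔMC mice, and the ranges did not overlap. The share of all genes under this limit was not counted either. Library 3 also had the most keratinocyte markers of the WT libraries (0.728% of transcripts). The part of other cells in its *Vcl* level was not tested. The genes most like *Vcl* over the 30 libraries were *Nbeal1* (r = 0.64), *Eif4g1* (0.63), *Nrip1* (0.62), *Jmjd1c* (0.60) and *Eif3c* (0.59), of which *Eif4g1* and *Eif3c* encode translation initiation factors. *Vcl* itself was at 0 in 1 of these libraries and had 140 transcripts over all MCs. The genes named were the highest of 3264 compared, over libraries that share mice, and their likeness to *Vcl* was not tested.

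In the complex of ILK, PINCH and parvin the *Tln1*ΔMC mice differed among themselves. *Ilk*, the scaffold of the complex, was 0.0809, 0.105 and 0.0429 in WT mice and 0.115, 0.0764 and 0.353 in *Tln1*ΔMC mice. Only *Tln1*ΔMC mouse 3 stood apart, with a Poisson interval from 0.304 to 0.408, while each of the other 5 mice held 3 to 12 transcripts. All 10 libraries of this mouse held *Ilk*, at 0.172 to 0.517 with a median of 0.363, against 0 to 0.249 with a median of 0.0792 in the 20 libraries of the other 5 mice. With each cell thinned to 500 UMIs, 18 of 932 cells of *Tln1*ΔMC mouse 3 had an *Ilk* UMI, 1.93% (exact binomial interval 1.15 to 3.04), against 0.348% to 0.633% in the other mice, which left out 2 of its cells and 4 to 25 of theirs. Without thinning the shares were 16.4% and 1.10% to 4.08%, at median depths of 4761 and 1888 to 2994 UMIs per cell. This mouse was also the only one of its background set, read from the barcodes that a library did not use, so that the mouse, its background set and its depth cannot be told apart. The genotypes overlapped (two-sided exact permutation p = 0.3 over 3 and 3 mice).

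*Lims1*, which encodes the adaptor PINCH-1, was 0.901, 0.671 and 0.472 in WT and 0.628, 0.535 and 0.747 in *Tln1*ΔMC mice. The values of *Tln1*ΔMC mice lay inside the WT range, at a log2 fold change of -0.03 ± 0.24 (interval -0.57 to 0.51, adjusted p = 0.991 by limma). *Parva*, which encodes the actin-binding α-parvin, was 0.0925, 0.0959 and 0.114 in WT mice and 0.0641, 0 and 0.0153 in *Tln1*ΔMC mice. All *Tln1*ΔMC mice lay below all WT mice (two-sided exact permutation p = 0.1 over 3 and 3 mice, the smallest possible), from 27 and 13 transcripts. Fibroblast markers were also lower in *Tln1*ΔMC mice. In each WT mouse *Parva* was highest in the library in which these markers were highest. It stood there at 0.289, 0.140 and 0.330 in WT mice 1, 2 and 3, with markers at 54.3, 434.3 and 200.7. In *Tln1*ΔMC mouse 1, *Parva* was at 0 in the library with markers at 40.8 and at 0.179 in one with markers at 1.25. With cells that had 1% or more of their transcripts on fibroblast markers left out, *Parva* was 0.0715, 0.0723 and 0.0313 in WT and 0.0649, 0 and 0.0153 in *Tln1*ΔMC mice, and the ranges overlapped. The part of fibroblast RNA in the difference was not tested otherwise.

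Of the adaptors further from the integrin, *Pxn* was lower in every *Tln1*ΔMC mouse than in any WT mouse but missed the threshold. *Pxn*, the docking protein for focal adhesion kinase, stood at 0.867, 1.19 and 1.36 in WT and at 0.795, 0.696 and 0.800 in *Tln1*ΔMC mice, a log2 fold change of -0.52 ± 0.23 with an interval from -1.04 to 0.00 (limma, p = 0.0518, adjusted p = 0.838). The exact two-sided permutation p was 0.1 over 3 and 3 mice. Of all genes tested, 6.31% lay below all WT mice in this way and 5.34% above, and 2 of the 10 members (*Pxn* and *Parva*, the latter under the limit of the test) lay below and 0 above. Within background sets *Pxn* differed by -0.0719 per 10000 in set A (WT mouse 1 and *Tln1*ΔMC mouse 1) and by -0.580 in set B (WT mice 2 and 3 and *Tln1*ΔMC mouse 2). In the barcodes not in use *Pxn* was present at 4.51 per 10000 in WT and 2.91 in *Tln1*ΔMC libraries, above its level in cells. Its part in the difference was not tested. Without fibroblast-marked cells the genotypes did not overlap, at 0.858, 1.20 and 1.28 in WT and 0.805, 0.697 and 0.800 in *Tln1*ΔMC mice. With Gm genes kept in the total they did.

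*Zyx*, which brings actin polymerization factors to adhesions, was 3.35, 4.83 and 4.99 in WT and 4.30, 4.12 and 4.30 in *Tln1*ΔMC mice. Its *Tln1*ΔMC values lay inside the WT range, and the log2 fold change was 0.01 ± 0.22 (interval -0.49 to 0.50, adjusted p = 0.999 by limma).

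**Figure D2:**
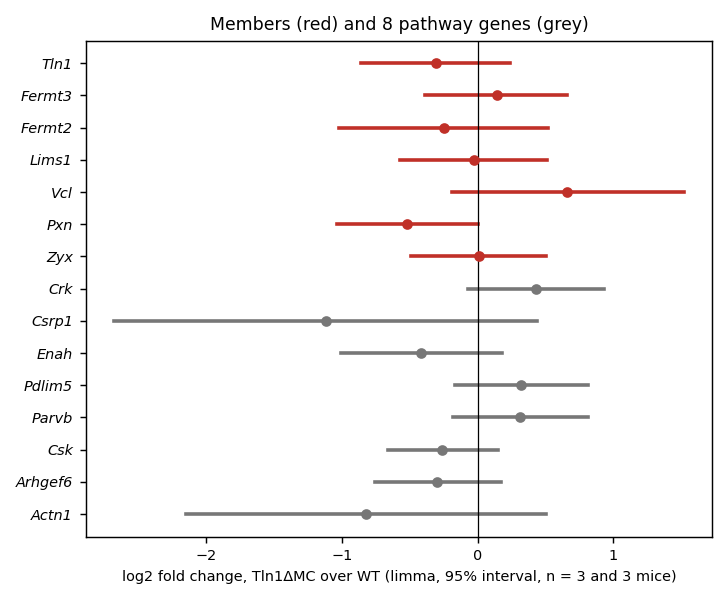
Log2 fold change of *Tln1*ΔMC over WT MCs (x axis) with 95% intervals from limma on 3 and 3 mice, for the 7 members tested (red) and the 8 other genes of the pathway with the smallest unadjusted p (grey). All intervals cover 0 or reach 0.00 (*Pxn*), and that of *Vcl* runs from -0.19 to 1.52.

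Background sets were inferred from unused barcodes alone, and no label states what the mice of a set share. The mice of set A were linked by a mean correlation of 0.225, near the limit of 0.2, and those of set B by 0.375 to 0.482. In set A *Tln1* was 1.06 per 10000 higher in the *Tln1*ΔMC mouse and in set B 1.98 lower than the mean of the WT mice (differences of 1.06 and -1.98). *Fermt3* (0.836 and -0.561), *Zyx* (0.943 and -0.793), *Tln2* (0.0141 and -0.0104) and *Fermt2* (-0.184 and 0.00896) also differed in direction between the sets. *Vcl* was higher in the *Tln1*ΔMC mouse of each set, by 0.0473 and 0.0870, as was *Ilk* (0.0345 and 0.00266). *Parva* was lower, at -0.0284 and -0.105, as was *Lims1* (-0.273 and -0.0367). *Tln1*ΔMC mouse 3 had no WT mouse in its set.

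Of 51 other genes of talin, kindlin and focal adhesion function, 41 were tested and 0 were called in either direction, with 0 at an unadjusted p under 0.05 and a smallest adjusted p of 0.839 (limma). Their median log2 fold change was -0.09, with 13 above and 28 below 0, beside 4295 above and 4306 below 0 over all genes tested. Of the partners of kindlin, parvin, PINCH and ILK 3 of 5 were tested, of talin recruitment and integrin regulators 8 of 11, of kinases and signalling adaptors 16 of 18, of actin linkers 9 of 10 and of zyxin family and LIM proteins 5 of 7. All 9 actin linkers lay below 0, with a median of -0.25, while fibroblast markers were also lower in every *Tln1*ΔMC mouse. The 9 ran from -0.82 ± 0.59 (*Actn1*) to -0.01 ± 0.24 (*Vasp*). They were measured in the same mice, so that their directions are not independent. Without fibroblast-marked cells all 9 lay below 0, with a median of -0.17, beside 4269 of 8436 genes tested. The part of fibroblast RNA in this direction was not tested. The 8 genes with the smallest unadjusted p were *Crk*, *Csrp1*, *Enah*, *Pdlim5*, *Parvb*, *Csk*, *Arhgef6* and *Actn1*. *Crk*, an SH2 and SH3 adaptor that binds phosphorylated paxillin, had 0.43 ± 0.22 (adjusted p = 0.839 by limma). *Parvb*, which encodes β-parvin, went from 1.51 ± 0.121 to 1.88 per 10000, at 0.31 ± 0.22, and *Pdlim5*, a PDZ and LIM protein, had 0.32 ± 0.22. The other 5 lay below 0. *Csrp1*, a LIM protein of smooth muscle and fibroblasts, had -1.12 ± 0.70 and *Actn1*, which encodes the actin crosslinker α-actinin-1, -0.82 ± 0.59. *Enah*, an actin polymerization factor, had -0.42 ± 0.27, *Arhgef6*, an exchange factor for Rac, -0.30 ± 0.21, and *Csk*, the kinase that restrains Src, -0.26 ± 0.18.

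In *Myh11-GFP* cells kindlin-2 and α-parvin genes were high, and the kindlin-3 gene was listed at 0. All 10 members had at least 30 transcripts in *Myh11-GFP* cells and WT MCs together. In all 4 libraries *Fermt2*, *Parva*, *Lims1* and *Tln2* lay above all 6 MC mice, and *Fermt3*, *Zyx*, *Pxn* and *Tln1* lay below them. Among the 9917 genes with as many transcripts, 19.7% lay above and 20.3% below in this way, against 4 and 4 of the 10 members. These cells form 1 sample, and the labels name polyA RNA for MCs and total RNA for *Myh11-GFP* cells, so that ratios are given without a test.

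The kindlins split between the cells. *Fermt2* was 3.66, 4.38, 3.64 and 3.39 in *Myh11-GFP* libraries 13 to 16 and thus the most abundant of the 10 genes in these cells. It stood 9.69-fold above the WT MC mean, and no MC mouse exceeded 0.532. *Fermt3* had 0 transcripts in all 4 libraries and 495 in WT MCs. Set against the level of 3 transcripts over the 4 libraries (0.0208 per 10000), *Fermt3* was 87.6-fold lower in *Myh11-GFP* cells than the WT mean. The exact upper Poisson bound was higher, at 0.0256 per 10000, so that this fold is not a strict lower limit. After thinning to 500 UMIs, 71 of 850 WT cells had a *Fermt3* UMI (8.35%, exact binomial interval 6.58 to 10.4) and 0 of 318 *Myh11-GFP* cells, which allows a share of cells with a UMI, not of cells expressing the gene, of up to 0.943% by 3 counts (exact binomial bound 1.15%), at median depths of 2206 and 3904 UMIs before thinning; 54 and 12 cells were left out, and the shares before thinning were 35% and 0%. *Fermt2* had a UMI in 13 of 850 WT cells (1.53%, interval 0.817 to 2.60) and in 58 of 318 *Myh11-GFP* cells (18.2%, interval 14.2 to 22.9), and in 9.51% and 62.1% before thinning.

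Promoters of 7 of the 10 genes were in the RefSeq table used (GRCm38.p6), each from 250 bases before to 50 bases after a gene start; *Tln2*, *Parva* and *Pxn* are named only. They were searched on both strands for the CArG box, the site bound by serum response factor in smooth muscle and cytoskeletal genes, and for GGAA, the core of ETS factor sites, which do not overlap. A CArG box was present in 1.63% of 32851 promoters of this length and in those of *Fermt2* and *Vcl*, and in none of the windows of *Tln1*, *Fermt3*, *Ilk*, *Lims1* and *Zyx*. GGAA was present in 96.0% of promoters, with a median of 3 matches. It had 4 matches for *Fermt3* and 5 for *Tln1*, which was counted in both kinds of cells. The windows of the other members had 2 or 3. The promoters of *Fermt2* (chr14:45530016-45530315, minus strand) and *Vcl* (chr14:20929148-20929447, plus strand) are shown with the CArG box in capitals, at positions -204 and -227 from the gene start, and that of *Fermt3* (chr19:7019420-7019719, minus strand), the gene listed at 0 in *Myh11-GFP* cells, with GGAA on either strand in capitals. A match describes the letters and not a bound site.
Fermt2: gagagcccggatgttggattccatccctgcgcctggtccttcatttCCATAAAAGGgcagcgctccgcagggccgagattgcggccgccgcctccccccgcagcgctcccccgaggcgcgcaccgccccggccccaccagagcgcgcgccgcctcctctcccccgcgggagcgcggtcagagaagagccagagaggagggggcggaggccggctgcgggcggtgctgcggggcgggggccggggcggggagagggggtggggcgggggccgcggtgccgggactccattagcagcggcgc
Vcl: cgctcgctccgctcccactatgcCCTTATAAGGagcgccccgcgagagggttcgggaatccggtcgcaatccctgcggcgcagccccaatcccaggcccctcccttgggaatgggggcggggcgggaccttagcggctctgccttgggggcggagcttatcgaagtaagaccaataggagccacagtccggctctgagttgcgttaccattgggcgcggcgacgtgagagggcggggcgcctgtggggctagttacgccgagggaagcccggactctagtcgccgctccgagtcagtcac
Fermt3: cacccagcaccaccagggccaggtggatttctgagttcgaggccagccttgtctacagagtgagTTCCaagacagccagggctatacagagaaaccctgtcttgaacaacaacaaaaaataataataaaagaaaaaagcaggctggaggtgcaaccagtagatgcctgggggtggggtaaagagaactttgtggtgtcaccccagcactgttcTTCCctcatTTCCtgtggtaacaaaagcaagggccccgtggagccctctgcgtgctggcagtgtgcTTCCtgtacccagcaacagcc

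*Parva* was 1.78, 1.49, 1.73 and 1.44 in the 4 libraries, 16.2-fold above the WT mean, and every library exceeded the highest MC mouse (0.114). Its paralogues went the other way: *Parvb* had 4 transcripts in *Myh11-GFP* cells and 415 in WT MCs, and was 54.4-fold higher in WT MCs by mean level. *Parvg*, which encodes the parvin of blood cells, had 2 and 100 transcripts, a ratio of the sums of 26.5 in favour of WT MCs with a counting interval from 7.16 to 222. *Lims1* was 1.99, 2.29, 2.47 and 2.30, or 3.28-fold above WT MCs, and *Lims2*, which encodes PINCH-2, had 73 transcripts against 1 in WT MCs, a ratio of the sums of 137.5 with an interval from 23.9 to 5500. *Ilk*, whose product binds both PINCH proteins and all parvins, stood at 0.0627, 0.0551, 0.106 and 0.181, inside the range of the MC mice, with a ratio of sums of 1.11 (counting interval 0.515 to 2.31). The libraries of *Ilk* rest on 2 to 4 transcripts each.

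Both talins were counted in *Myh11-GFP* cells. Summed over all cells of the sort, among which fibroblast markers were also present, *Tln1* stood at 2.99, 3.14, 3.21 and 2.66. These libraries lay below every MC mouse and 1.88-fold below the WT mean, but the cells with the highest share of contractile genes did not (below). *Tln2* stood at 0.272, 0.165, 0.133 and 0.0903, from 26 transcripts, at a ratio of sums of 8.16 over WT MCs with a counting interval from 3.29 to 24.2. *Tln1* was thus far above *Tln2* in both kinds of cells. *Vcl* was 0.188, 0.193, 0.239 and 0.271, a ratio of sums of 2.09 with a counting interval from 1.21 to 3.61 over WT MCs, but library 13 lay below the highest *Tln1*ΔMC mouse (0.195).

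The adaptors *Pxn* and *Zyx* were lower in *Myh11-GFP* cells. *Zyx* stood at 1.09, 1.54, 1.12 and 1.08, or 3.63-fold below the WT mean, and no MC mouse was below 3.35. *Pxn* stood at 0.355, 0.688, 0.531 and 0.632, or 2.16-fold below the WT mean, and its highest library lay just under the lowest MC mouse (0.696). With Gm genes kept in the total, the ratios of *Myh11-GFP* over WT were 0.848 for *Tln1*, 0.739 for *Pxn* and 0.436 for *Zyx*, in place of 0.531, 0.463 and 0.275. On this scale *Fermt2*, *Parva*, *Lims1* and *Vcl* stood 14.6-, 26.1-, 5.16- and 3.33-fold above WT MCs. *Tln1* and *Pxn* then overlapped with the MC mice, and *Vcl* lay above all of them.

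**Figure D3:**
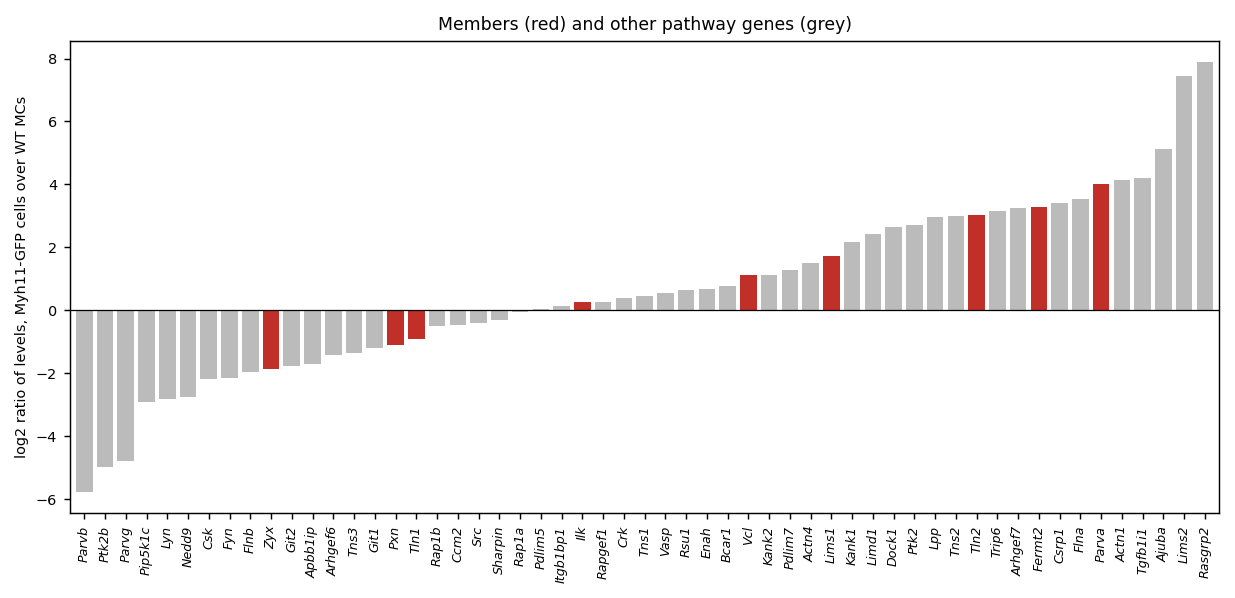
Log2 ratio of the level in *Myh11-GFP* cells over the mean of 3 WT MC mice (y axis) for members (red) and other pathway genes with at least 30 transcripts (grey), in order of the ratio (x axis); *Fermt3* and *Lpxn*, at 0 in *Myh11-GFP* cells, are not drawn, and the bars of *Lims2* and *Rasgrp2* rest on 1 WT transcript each. *Fermt2* (9.69-fold) and *Parva* (16.2-fold) stand at the right, and *Zyx* (0.275) has the lowest ratio of the members drawn.

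Of the 47 other pathway genes with at least 30 transcripts, 20 lay above all MC mice in all 4 libraries and 15 below, again beside 19.7% and 20.3% of all genes. The 6 with the largest ratios were *Rasgrp2*, *Lims2*, *Ajuba*, *Tgfb1i1*, *Actn1* and *Flna*. *Rasgrp2*, an exchange factor for the small GTPase Rap1, had 131.03 transcripts against 1 in WT MCs, a ratio of sums of 246.7 with a counting interval from 43.5 to 9820. *Ajuba*, a LIM protein related to zyxin, was 35.1-fold higher, and *Tgfb1i1*, which encodes the paxillin relative Hic-5 of smooth muscle, 18.4-fold. *Actn1* (17.5-fold) and *Flna*, which encodes the actin crosslinker filamin A (11.6-fold), followed. In the other direction *Lpxn*, which encodes leupaxin, the paxillin relative of blood cells, had 0 transcripts against 439 and was at least 77-fold lower. *Parvb* and *Parvg* came next, together with *Ptk2b*, which encodes the focal adhesion kinase relative Pyk2 and was 31.8-fold lower, whereas *Ptk2*, which encodes focal adhesion kinase itself, was 6.55-fold higher. *Pip5k1c*, the lipid kinase that talin binds, was 7.50-fold lower and *Lyn*, a Src family kinase of blood cells, 7.03-fold.

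Within *Myh11-GFP* cells, levels differed with the share of transcripts on 8 contractile genes (*Acta2*, *Myh11* and 6 others). The 330 cells were split by this share into 3 parts of 110, with cuts at 0.647% and 1.51%, near which (within 10% of the cut) 22 and 33 cells lay. *Tln1* was 1.76, 3.07 and 4.41 per 10000 in the lowest, middle and highest part, with Poisson intervals of 1.42 to 2.15, 2.57 to 3.65 and 3.83 to 5.04. The highest part exceeded the lowest by 2.51-fold, and by 2.31- to 2.92-fold within each of the 4 libraries. Its level lay inside the range of the MC mice for *Tln1* (3.63 to 6.71), whereas the lowest and middle parts lay below that range. *Lims1* was 1.44, 2.63 and 2.77 in the 3 parts, 1.93-fold higher in the highest, with 1.59- to 3.26-fold within the libraries. *Fermt2* was 3.12, 3.98 and 4.37, a 1.4-fold difference, with 1.23- to 1.91-fold within the libraries. All 4 libraries had the same direction for these genes, and the share of all genes that did so was not counted.

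*Parva*, *Zyx*, *Pxn* and *Tln2* did not share a direction in all libraries. *Parva* was 1.57, 1.77 and 1.60 in the 3 parts, with ratios of 0.492 to 1.5 within libraries, and *Zyx* 1.17, 0.792 and 1.62. *Pxn* was 0.680, 0.489 and 0.395, lower in the highest part in 3 of 4 libraries. *Vcl* had 2, 14 and 15 transcripts in the 3 parts (0.0378, 0.326 and 0.312 per 10000), and was 8.26-fold higher in the highest (counting interval 1.92 to 74.4), but a ratio within a library could be given for 1 library only (2.42). With cells in 2 equal parts *Vcl* was 3.62-fold higher (1.52 to 9.96), and 1.62-, 6.21- and 1.36-fold within the 3 libraries that gave a ratio. *Ilk* had 1, 5 and 7 transcripts in the 3 parts. In 2 parts it was 3.52-fold higher (0.907 to 19.9), and 1.21-, 2.33- and 4.07-fold within 3 libraries. The median share of fibroblast markers was 0.723%, 0.604% and 0.334% in the 3 parts, that of pericyte markers 0.852%, 1.41% and 0.962%, and the median depth 3915, 3544 and 4142 transcripts; their part in these differences was not tested. Intervals cover counting error only, and cells are not replicates.

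**Figure D4:**
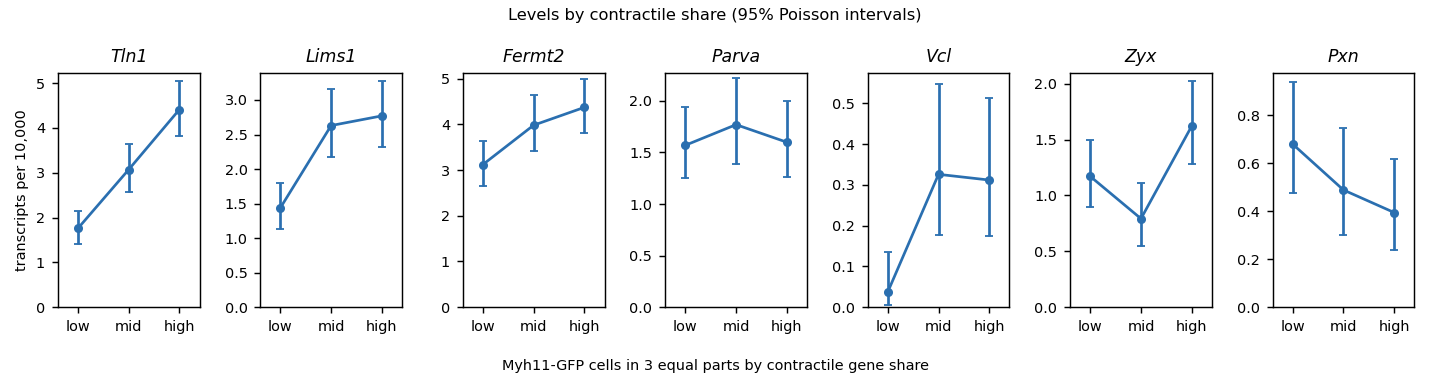
Level in transcripts per 10,000 (y axis) of 7 members in 3 equal parts of the *Myh11-GFP* cells by the share of transcripts on contractile genes (x axis, low to high), with 95% Poisson intervals. *Tln1* goes from 1.76 to 4.41, whereas *Parva* stays between 1.57 and 1.77.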

How the data were processed

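Members and gene lists were chosen with earlier results of these data known. Per the labels and the study's methods, the authors sorted single cells, prepared mCEL-Seq2 libraries with UMIs of 6 bases, demultiplexed with bcl2fastq 2.17.1.14, aligned with BWA 0.6.2-r126 to ENCODE VM9 gene models of mm10, discarded reads with several places in the transcriptome, merged gene loci that overlap strongly, and corrected UMI counts for collisions, which gives transcript counts. These counts were deposited without scaling, and all went back to whole UMIs within 1e-06, with 4096 possible UMIs. No doublet caller was run here.

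Cells needed more than 1000 transcripts and no more than 2% of them on *Kcnq1ot1*, a limit that removed no cell. No cell was found in 2 libraries with identical values (0). Genes named Gm plus a number were left out of totals and tests. Transcripts were summed per mouse. The genes that reached 10 transcripts in 3 or more mice were tested by limma 3.58.1 (R 4.3.3, trend) on log2(transcripts per 1000000 + 1) after TMM written for this purpose, with Benjamini-Hochberg adjustment over all genes tested at 0.05. A count test had been planned; because the values are corrected transcripts in a format that the unit check did not read as counts, limma was used. It was also run on simulated counts with a fixed dispersion and no differences in background or cell make-up. That run does not show which changes could be found in these mice. Fold changes on this scale understate the change of low genes. Single levels were compared by exact two-sided permutation of the 6 mice (scipy 1.17.1). Intervals are exact Poisson or binomial at 95% and, like the level set by a count of 0 (3 transcripts), cover counting error only. Shares used cells thinned to 500 UMIs outside Gm genes. Background sets were read from the correlation, above 0.2, between unused barcodes of 1 library and used barcodes of others, each library using 96 of its barcodes. Named were all members, the 8 pathway genes with the smallest p, the 6 with the largest ratio in each direction, and the 5 most like *Tln1* or *Vcl*. Positions are from GENCODE M21, and promoters from RefSeq. Alternatives covered scaling, filters, cells, libraries, mice, blocks and pseudocounts.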

Additional observations from a re-analysis of the deposited data

Results flagged for a closer look

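*Zyx* in *Myh11-GFP* library 14 stood at 1.54 per 10000, apart from the other 3 libraries at 1.08 to 1.12, with a gap of 0.931 of the range, above the critical value of Dixon's test at 95% for 4 libraries. Chance flags about 1 in 20 such groups, and 9 genes were examined in this way.

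Barcodes that a library did not use held 615 transcripts of the 10 members over all libraries, 4.15% of the 14826 in kept cells, which are signal outside the comparisons. Over all genes outside Gm genes the transcripts in these barcodes came to 3.84% of those in kept cells in WT, 2.77% in *Tln1*ΔMC and 2.99% in *Myh11-GFP* libraries. *Pxn* had larger shares, with 15.3%, 10.3% and 11.8%. *Parva* had 18.5% and 30.8% in the MC libraries, from 5 and 4 transcripts, and 4.24% in *Myh11-GFP* libraries. *Fermt3* had none in *Myh11-GFP* libraries.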

How the results depend on the processing

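Over 24 alternatives, 0 members and 0 pathway genes were called in any. Over all genes, 0 were called in 19, and 44 (3 of them higher) with Gm genes kept and no TMM, which moved the median log2 fold change to 0.19, 4 with the background set as a block and 2 with voom weights; leaving out each mouse in turn gave 0 to 12, the highest without *Tln1*ΔMC mouse 1, and 1 without WT mouse 1. With the replicate block 0 genes were called. The mouse numbers do not pair the mice: the deviations of same-numbered mice correlated at 0.163, -0.212 and -0.266. *Tln1* and *Pxn* stayed below 0 and *Vcl* above 0 in all 24, at -0.52 to -0.10, -0.75 to -0.32 and 0.47 to 1.03, with adjusted p from 0.411, 0.247 and 0.619 to 1. The other 4 turned in some. *Zyx* (0.01) became -0.00 with median-of-ratios size factors and without macrophage-marked cells, -0.03 without TMM and without the library with most macrophage markers, -0.02 with cells over 2000 transcripts and with cells over 1000 transcripts outside Gm genes, -0.04 without fibroblast-marked cells, and -0.01 to -0.23 without *Tln1*ΔMC mouse 2 and without WT mouse 1. *Lims1* became 0.16 with Gm genes kept, and 0.05, 0.14 and 0.00 without *Tln1*ΔMC mouse 2, WT mouse 1 and WT mouse 2. *Fermt2* became 0.03 without WT mouse 2, and *Fermt3* -0.00 and -0.03 without *Tln1*ΔMC mouse 1 and WT mouse 1. Over the 6 fits without a mouse, *Lims1* ranged from -0.24 to 0.14, *Fermt2* from -0.59 to 0.03 and *Fermt3* from -0.03 to 0.33. Without the filter on low genes *Parva* had -2.04 ± 0.77, *Ilk* 0.99 ± 0.58 and *Tln2* -0.16 ± 0.66 (limma, adjusted p = 0.886, 0.886 and 0.978). The count of members whose genotypes did not overlap (2) was 1 without fibroblast-marked cells, where *Pxn* was left. It was also 1 with Gm genes kept in the total, where *Parva* was left. It was 3, with *Vcl* added, for cells over 1000 transcripts outside Gm genes and without the library with most macrophage markers. Leaving out each mouse in turn gave 2 to 5. With fewer mice any gene is more often free of overlap, and the share of all genes in these settings was not counted. Leaving out each *Myh11-GFP* library or WT mouse moved no ratio by more than the spread of the libraries and mice. DESeq2's test was planned but not run, although the recovered UMIs would allow a count test. The removal of fibroblast-marked cells, the library with most keratinocyte markers, the used barcodes, voom and the pseudocounts were chosen after seeing the data. The cause of these changes was not tested. Depth limits *Tln2*, *Ilk*, *Parva* and *Vcl*.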
